A study of Mus musculus with 74 samples.

Results

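The Hox genes and their neighbours Evx1 and Evx2 were described in mouse embryonic stem (ES) cells in which Nanog, with or without Otx2, was switched on or lost. Members were all genes of the expression table whose symbol was Hoxa, Hoxb, Hoxc or Hoxd followed by digits only, plus Evx1 and Evx2, which gave 42 identifiers of 37620 in the table. They comprised 12 HoxA, 10 HoxB, 9 HoxC and 9 HoxD identifiers and the 2 Evx genes, with 41 different symbols, because Hoxa3 was listed under 2 identifiers with overlapping loci. One of these, ENSMUSG00000059723, had no count in any library, so the Hoxa3 values were taken as uncertain, as were those of Hoxd3 and Hoxd4, whose loci overlap.

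Polyadenylated RNA of 35 libraries in 12 conditions was measured. Tg2a FCS cells (n = 3) were E14Tg2a ES cells in serum and LIF, the cytokine that sustains their self-renewal. 44iN cells were 1 line that lacks endogenous Nanog and carries a Nanog transgene induced by doxycycline (Dox); they were sampled with Dox (n = 2), 24 h after its removal (n = 2) and after long-term culture without Dox under G418 selection, called LT (n = 2), all with LIF. Nanog SunTag cells were clones C1 and C2 of E14Tg2a derivatives carrying a Dox-driven SunTag, that is a catalytically dead Cas9 that recruits copies of the VP64 activator, and a guide RNA against the Nanog promoter. They were harvested on the third day with LIF and without Dox (n = 3), with both (n = 2), with neither (n = 3) or with Dox alone (n = 3). Nanog/Otx SunTag cells were clones C1ON3 and C2ON3, derived from the Nanog SunTag clones C1 and C2 by adding an Otx2 guide, and were grown in the same 4 conditions with 3 libraries for LIF without Dox and 4 for each other condition. LIF was used at 10 ng/mL and Dox at 1 µg/mL. Some clones supplied several libraries of a condition and others only a single library. The Nanog SunTag −LIF +Dox libraries C1-1 and C1-1b carry the same replicate number in their titles. No source used here states that libraries of a clone were separate cultures in every case. The p-values thus measured the spread between libraries, within and between clones, which may be partly technical.

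The guides fixed which promoter each SunTag line addressed, and are shown with the adjoining NGG motif in capitals.
Nanog guide, chr6:122657269-122657288, + strand: cttcccactagagatcgccaGGG
Otx2 guide, chr14:49282649-49282668, - strand: aatgtagagcgtgcatttggAGG
Coordinates are those of mm9 (NCBIM37) and cover the 20 bases in lower case. The Nanog site was centred 228 bases upstream of the outermost annotated Nanog start. No site followed by NGG within the 4 Hox cluster spans came closer to the Nanog guide than 7 mismatches of 20, and none closer to the Otx2 guide than 6. The Otx2 site was centred 4660 bases downstream of the outermost annotated Otx2 start. Nanog/Otx SunTag cells are labelled Nanog/Otx2 in the plots.

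Hox genes encode homeodomain transcription factors that assign position along the body axis. Mammals carry them in 4 clusters, and within a cluster the genes of low number lie at the 3′ end and are switched on early and anteriorly, whereas those of high number lie at the 5′ end and are switched on late and posteriorly. Evx1 and Evx2, homologues of even-skipped, lie beyond the 5′ ends of HoxA and HoxD, and Evx1 is known as a gene of the primitive streak. In undifferentiated ES cells the clusters are textbook targets of the Polycomb complex PRC2, which marks silent developmental genes. Nanog is itself a homeodomain factor, and Otx2 a homeodomain factor of cells leaving the naive state.

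The HoxA members and Evx1 lie together on chromosome 6, the HoxB members spanned chr11:96055630-96229570, the HoxC members chr15:102751534-102867274 and the HoxD members with Evx2 chr2:74491049-74603200 (mm9). Library totals ran from 6107512 to 92244655 counts, with a median of 29298745. All members together held 128 to 2170 counts per library, or 0.000808% to 0.00907% of the total, so the depth on most members was low and a missing count was not evidence of absence. Values below are normalised counts, that is the deposited counts divided by a size factor per library, and a member was called detected in a condition when every library of it reached 10 normalised counts.

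By this rule 18 of 42 members were detected in at least 1 condition, 24 in none, and 14 never reached 10 in any library. Detection was uneven among the clusters: 7 of 12 HoxA, 5 of 10 HoxB, 1 of 9 HoxC and 4 of 9 HoxD identifiers were detected somewhere, as was Evx1 but not Evx2. Hoxb9 and Hoxc13 were among those detected in all 12 conditions. Hoxa2, both Hoxa3 identifiers, Hoxa5 and Hoxa6, on the 3′ side of Hoxa7, never reached 10 in a library, and Hoxa4 in the same stretch was detected in 1 condition. Hoxb3, Hoxb5, Hoxb6 and Hoxb8 never reached 10 either. Hoxc13, the most 5′ gene of its cluster, was the only detected member of HoxC. The highest Evx2 value in any library was 0.991.

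The number of detected members was 7 in Tg2a FCS, 6 in 44iN cells 24 h without Dox, 11 in 44iN cells with Dox and 8 in 44iN LT cells. In Nanog SunTag cells with LIF it was 3 without Dox and 13 with Dox, and without LIF it was 7 without Dox and 10 with Dox. In Nanog/Otx SunTag cells the corresponding numbers were 4, 12, 8 and 9. These numbers depend on depth and on the number of libraries, which differed between conditions, and were not tested.

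**Figure D1:**
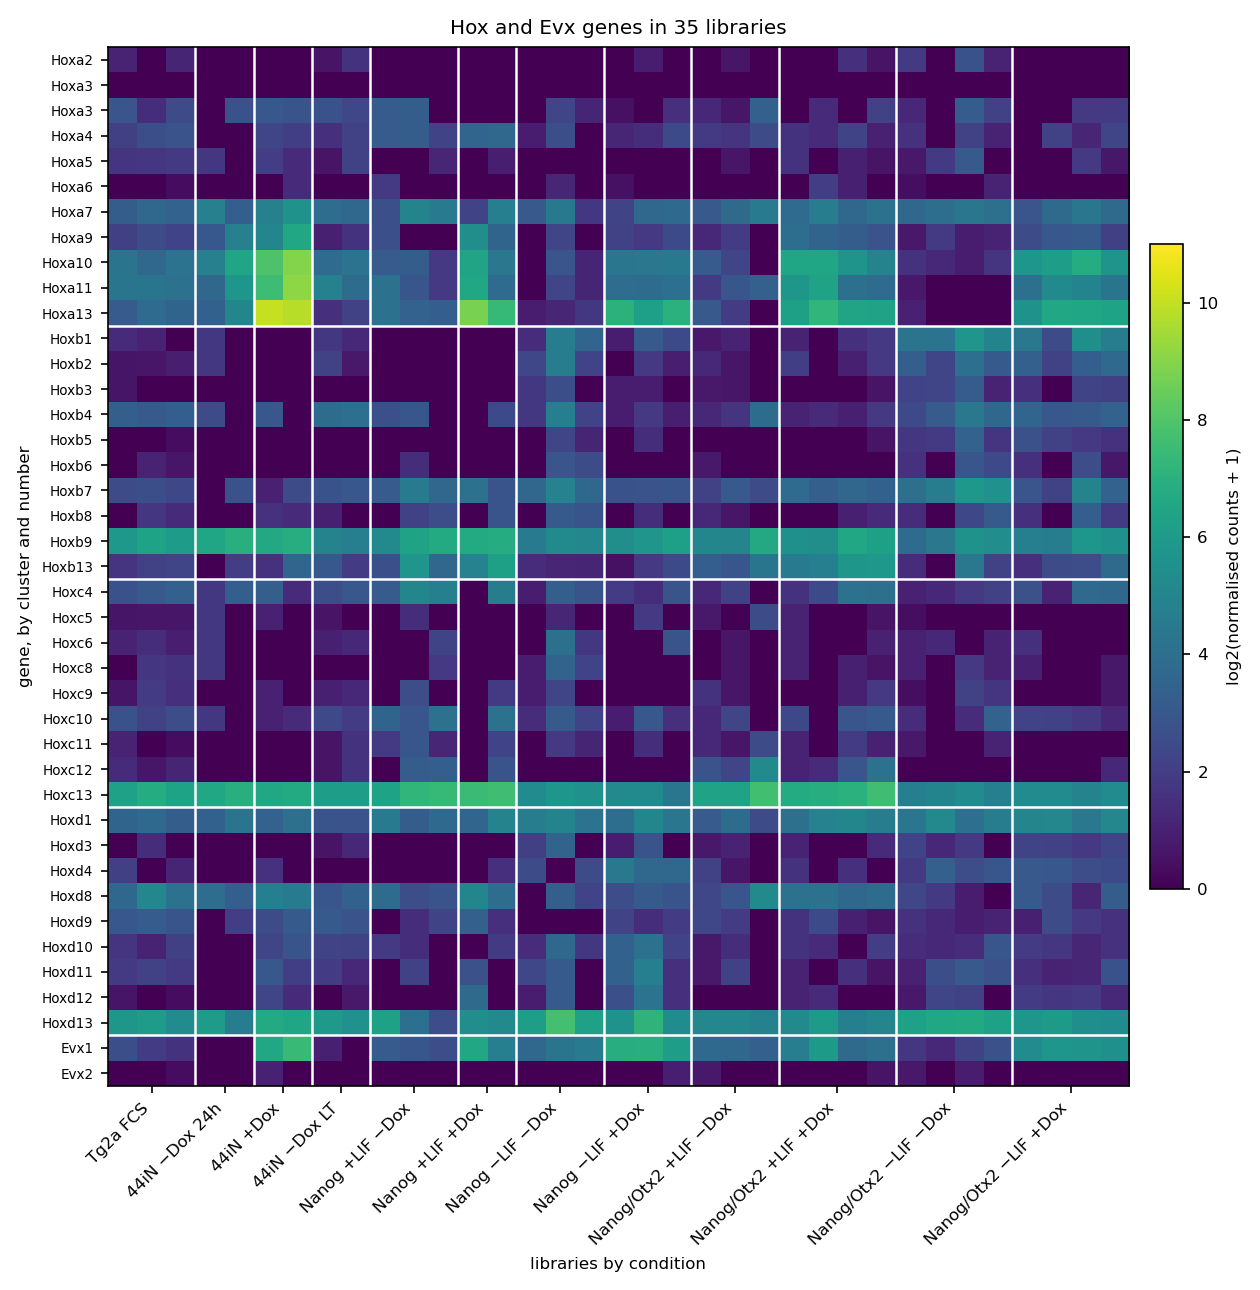
Heat map of Hox and Evx identifiers by library, with genes in cluster order in rows and the 35 libraries in columns grouped by condition; the colour gives log2 of the normalised count plus 1. Most rows stay dark (low) in every library, Hoxb9 and Hoxc13 are lighter throughout, and Hoxa10 to Hoxa13 and Evx1 are brightest in libraries with Dox.

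Between genes, levels were compared per kilobase of annotated exon. In Tg2a FCS cells Hoxc13 stood at 36.9 ± 7.82 normalised counts per kilobase (SD, n = 3), Hoxb9 at 26.7 ± 5.11 and Hoxd13 at 21.2 ± 5.44, and neighbours in this order lay within the sum of their SDs. Hoxd8 at 7.52 ± 3.99, Hoxa11 at 6.63 ± 0.462 and Hoxa10 at 4.03 ± 0.878 formed a lower group. In 44iN cells with Dox the order on the same scale was headed by Hoxa13 at 395 ± 45.7 (SD, n = 2), followed by Hoxa11 at 139 ± 95.7, Hoxa10 at 96.3 ± 46.7 and Evx1 at 46.0 ± 19.8. Among these, only the step from Hoxa13 to Hoxa11 was larger than the sum of the SDs of its neighbours. Hoxb9 at 41.1 ± 4.24, Hoxc13 at 40.7 ± 2.32 and Hoxd13 at 39.0 ± 4.67 lay close to Evx1 there.

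The question whether induced Nanog reaches the clusters was asked first without LIF in Nanog SunTag cells. Hoxa13, the most 5′ HoxA gene and a determinant of distal limb and hindgut, rose with Dox, as did Evx1. Hoxa4, in the 3′ part of HoxA, averaged 1.99 normalised counts without Dox and 2.50 with Dox. This was too low for the test to decide, so no contrast along the cluster was read from it. As a check of the induction, Nanog measured 7032, 8484 and 2234 normalised counts without Dox and 54730, 55640 and 45040 with Dox. Hoxa13 measured 0.814, 1.29 and 2.46 without Dox and 132, 73.7 and 127 with Dox. The lowest library with Dox thus lay far above the highest without, and the log2 fold change was 6.18 ± 0.59 (SE; edgeR quasi-likelihood test, Benjamini-Hochberg adjusted p = 0.0002).

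Evx1 measured 12.2, 18.1 and 22.1 normalised counts without Dox and 114, 117 and 69.6 with it. The groups did not overlap, and the log2 fold change was 2.56 ± 0.48 (edgeR, adjusted p = 0.0106). The call was lost without the −LIF −Dox library C1-1 (adjusted p = 0.0671) or the −LIF +Dox library C1-1 (adjusted p = 0.0513), whereas the call of Hoxa13 held in all 11 fits that left 1 library out.

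Between Hoxa13 and the centre of the cluster lie Hoxa11 and Hoxa10, Abdominal-B type genes of limb, kidney and uterus. Hoxa11 measured 0, 3.88 and 1.23 normalised counts without Dox and 14.2, 13.7 and 15.4 with Dox. Hoxa10 measured 0, 6.46 and 1.23 without Dox and 19.2, 19.7 and 20.8 with Dox. Neither gene overlapped between the groups, but neither passed the test over all genes, with log2 fold changes of 3.21 ± 1.03 for Hoxa11 (edgeR, adjusted p = 0.11) and 3.10 ± 0.88 for Hoxa10 (adjusted p = 0.0685). With clone as a block both passed, at adjusted p = 0.0494 for Hoxa11 and 0.0389 for Hoxa10.

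In all, 2 of the 15 members that passed the filter on low counts were called in this comparison, both higher. Of all genes tested 5.14% were called in either direction, 3.60% higher and 1.54% lower. With the clone block 4 members were called, and the share over all genes was not counted for that fit. Over these 15 members the log2 fold changes had a median of 0.71, and over all genes tested 0.00. The filter admitted a gene through any 1 condition in which all libraries reached 10, so the other 27 members were not tested. Hoxa4, Hoxa9, Hoxa10, Hoxa11, Hoxa13, Hoxb13, Hoxd4 and Hoxd8 entered in this line only through conditions with Dox, which favours a positive median. Nothing was therefore read from the share called or from the median.

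The promoters of the genes with the largest Dox responses are shown as the 250 bases before the outermost annotated start (mm9), 5′ to 3′ on the strand of the gene, with CG dinucleotides in capitals.
Hoxa13, chr6:52210875-52211124, - strand: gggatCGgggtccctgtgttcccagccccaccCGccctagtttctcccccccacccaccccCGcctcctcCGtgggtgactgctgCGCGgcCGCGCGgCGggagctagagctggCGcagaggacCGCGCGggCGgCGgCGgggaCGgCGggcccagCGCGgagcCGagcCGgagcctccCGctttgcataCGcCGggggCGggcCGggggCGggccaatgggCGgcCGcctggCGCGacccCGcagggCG
Hoxa11, chr6:52196214-52196463, - strand: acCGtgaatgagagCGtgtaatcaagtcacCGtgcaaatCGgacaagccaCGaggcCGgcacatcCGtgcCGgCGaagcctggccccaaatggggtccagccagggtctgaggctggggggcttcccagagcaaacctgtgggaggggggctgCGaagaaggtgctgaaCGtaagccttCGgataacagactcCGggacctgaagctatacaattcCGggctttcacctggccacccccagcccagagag
Hoxa10, chr6:52190854-52191103, - strand: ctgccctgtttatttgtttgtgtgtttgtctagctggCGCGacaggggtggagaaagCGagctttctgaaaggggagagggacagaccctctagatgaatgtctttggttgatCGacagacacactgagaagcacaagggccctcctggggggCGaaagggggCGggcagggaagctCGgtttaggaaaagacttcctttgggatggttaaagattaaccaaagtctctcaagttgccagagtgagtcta
Evx1, chr6:52263242-52263491, + strand: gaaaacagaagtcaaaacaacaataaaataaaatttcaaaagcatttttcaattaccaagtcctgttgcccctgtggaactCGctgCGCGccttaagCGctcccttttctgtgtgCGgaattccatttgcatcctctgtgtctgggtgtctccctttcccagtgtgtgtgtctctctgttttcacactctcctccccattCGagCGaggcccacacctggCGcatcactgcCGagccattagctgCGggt
The window of Hoxa13 held 35 CG dinucleotides at 80.0% G and C, that of Hoxa11 14 at 61.2%, Evx1 10 at 49.6% and Hoxa10 7 at 51.6%. Over all 22333 protein-coding promoters of the table the medians were 8 CG dinucleotides and 54.0% G and C. The letters TAATGG, a core that the Nanog homeodomain is known to bind, were searched on both strands and stood in the windows of Evx1, Hoxa5, Hoxb2 and Hoxb3, or 9.52% of 42 members, against 5.79% of all promoters. TATAAA stood in 7 of 42 members, or 16.7%, against 12.3% of all promoters, and in none of the 4 windows printed here. These are matches of letters in a fixed window and say nothing of binding.

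Non-coding transcripts next to these genes also rose. Gm15053, a non-coding transcript whose start lies 1895 bases from that of Hoxa13 on the opposite strand, measured 0.814, 0 and 0 normalised counts without LIF and Dox, and 21.7, 6.86 and 12.7 with Dox alone. Hoxa11as, annotated antisense to Hoxa11, measured 0, 1.29 and 0, then 14.2, 9.43 and 18.1. 5730457N03Rik, annotated across the start of Evx1 on the other strand, measured 13, 10.3 and 12.3, then 64.3, 69.4 and 46.1.

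All 3 were called higher, against 3.60% of all genes tested. None overlapped between the groups, and the share of all genes without overlap was not counted. Gm15053 and Hoxa11as passed the filter on low counts only through the condition with LIF and Dox, so nothing was read from the number called. The log2 fold change of 5730457N03Rik was 2.34 ± 0.48 (edgeR, adjusted p = 0.0154). Gm15053 and Hoxa11as had 1 count each in the lower group, so their ratios of 44.6 and 39.2 carried exact 95% counting intervals of 7.77 to 1787 and 6.79 to 1572. Their calls (edgeR, adjusted p = 0.0121 and 0.0158) were each lost without 1 of 3 libraries. These were the −LIF −Dox libraries C1-1 and C1-2 and the −LIF +Dox library C1-1 for Gm15053 (adjusted p = 0.0517 to 0.058), and the −LIF −Dox libraries C1-1 and C2-1 and the −LIF +Dox library C1-1 for Hoxa11as (adjusted p = 0.0569 to 0.0946). The libraries kept strand, but whether the counting used it is not given in the sources used here, so reads of Hoxa11 and Evx1 and of their antisense partners could not be told apart with certainty.

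With LIF, Dox moved the same end of HoxA in Nanog SunTag cells. Hoxa13 measured 16.1, 10.1 and 8.74 normalised counts without Dox, and 435 and 167 with Dox in clones C1 and C2. Evx1 measured 8.03, 6.71 and 4.99 without Dox, and 97.0 and 26 with Dox. For both genes the 2 libraries with Dox lay above all 3 without, although they differed from each other by more than the 3 uninduced libraries did.

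The log2 fold changes were 4.72 ± 0.51 for Hoxa13 (edgeR, adjusted p = 0.0141) and 3.20 ± 0.61 for Evx1 (adjusted p = 0.0476). These were the 2 members called of 15 tested, both higher, against 0.563% of all genes tested called, 0.422% higher and 0.141% lower. Hoxa13 entered the test only through conditions with Dox, as given above, so nothing was read from the share called. Hoxa13 stayed called in all 11 fits that left 1 library out. Evx1 stayed called in 1 of 11, the fit without the +LIF +Dox library C2-1, and had adjusted p between 0.0574 and 0.237 when any other of the 11 libraries was left out. When the 5 libraries with LIF were fitted alone no member was called, with adjusted p = 0.256 for Hoxa13 and 0.297 for Evx1, and none was called with clone and the number of the table's column as a block, an alternative chosen after seeing the data (adjusted p = 0.0911 and 0.229). Gm15053 and Hoxa11as were called higher as well (adjusted p = 0.0439 and 0.0476), and each lost its call in 10 of the 11 such fits.

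Hoxa9, Hoxa10 and Hoxa11 had positive fold changes below the threshold with LIF. Hoxa10 measured 8.03, 8.38 and 2.50 normalised counts without Dox and 83.9 and 19.7 with Dox, at a log2 fold change of 3.05 ± 0.87 (edgeR, adjusted p = 0.148). Hoxa11 measured 16.1, 6.71 and 2.50 without Dox and 97.0 and 13.5 with Dox. Its clone C2 library with Dox lay below the highest library without Dox, and its adjusted p was 0.2. Hoxa9 had 2 counts in the uninduced group and 35 in the induced one, a ratio of 18.8 with an exact 95% counting interval of 4.82 to 161 (adjusted p = 0.158).

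Whether the Dox response depended on LIF was tested as an interaction. None of the 15 members was called in Nanog SunTag cells, 0 had an unadjusted p under 0.05, and DESeq2 also called 0, against 1.93% of all genes tested. For Hoxa13 the difference between the responses without and with LIF was 1.46 on the log2 scale, with a 95% interval of −0.36 to 3.28. That interval holds both no difference and a difference of several fold.

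In 44iN cells, where Nanog comes from a transgene and no SunTag is present, Hoxa13, Evx1, Hoxa11 and Hoxa10 had the largest fold changes of the members between culture with Dox and 24 h without, but none passed the test over all genes. Nanog measured 706 and 740 normalised counts 24 h without Dox and 13370 and 18390 with Dox. Hoxa13 measured 9.6 and 32.5 without Dox and 1055 and 896 with Dox. Hoxa11 measured 12 and 53.2, then 191 and 555, and Hoxa10 measured 26.4 and 88.7, then 243 and 496.

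None of these 3 genes overlapped between the conditions, and the second uninduced library was the higher one for each. With 2 libraries a condition such separation is common by chance, and its share over all genes was not counted. Evx1 had no count 24 h without Dox and measured 92.2 and 173 with Dox, at least 33.3-fold higher when the empty group was set to a floor of 3 counts over the group. By the same floor Gm15053 was at least 29.3-fold and 5730457N03Rik at least 17.1-fold higher with Dox. Without the second library with Dox these bounds were 23.2-fold for Evx1, 16.7-fold for Gm15053 and 9.22-fold for 5730457N03Rik.

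With 2 libraries a group, edgeR called 0 of 14376 genes tested, or 0%, and so 0 of 11 members, of which 4 had an unadjusted p under 0.05: Hoxa13 (log2 fold change 5.66 ± 0.56, adjusted p = 0.156), Evx1, Hoxa10 and Hoxa11. DESeq2 called these 4, all higher, and its share over all genes tested was not counted. Leaving out any 1 of the 4 libraries left a lone library in a condition, which was assumed to vary like the others. In these fits the log2 fold change ran from 4.98 to 6.77 for Hoxa13, 2.64 to 5.09 for Hoxa11 and 2.15 to 3.95 for Hoxa10. A joint test over 44iN and Nanog SunTag cells with LIF gave each cell type its own Dox term. It called 2 of 14 members, Hoxa13 (edgeR, adjusted p = 0.00692) and Evx1 (adjusted p = 0.0408). Over all genes tested 0.307% were called, 0.269% higher and 0.0384% lower by the 44iN term. Hoxa13 and Evx1 passed the filter of this test only through conditions with Dox, so nothing was read from the share called. With the replicate block 4 members were called, and the share over all genes was not counted for that fit. The joint test shared its libraries with the tests above. Hoxa13 kept its call in all 9 fits that left 1 library out, and Evx1 in 1 of 9, without the Nanog SunTag +LIF +Dox library C2-1, with adjusted p between 0.0657 and 0.155 in the other 8.

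**Figure D2:**
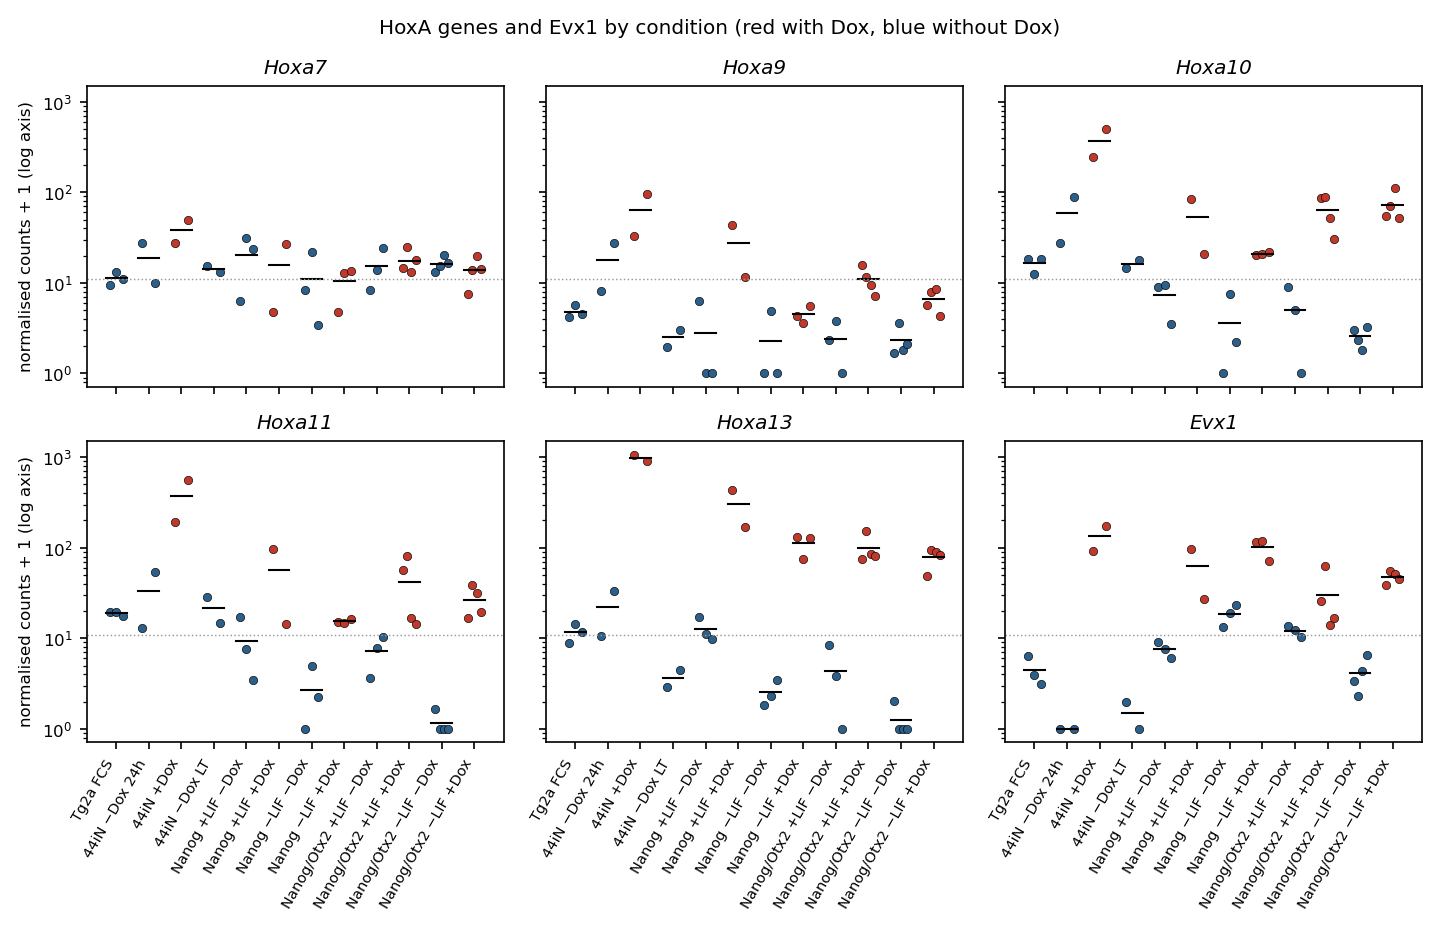
Normalised counts plus 1 on a log axis for HoxA genes from Hoxa7 to Hoxa13 and Evx1, 1 point per library in each of 12 conditions, red with Dox and blue without, with a bar at the mean; the dotted line stands for 10 normalised counts. Hoxa13 with Dox lies at 896 and 1055 in 44iN cells and at 47.5 to 435 in SunTag cells, above the libraries without Dox of the same cells.

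Nanog/Otx SunTag cells, in which Dox raised both factors, gave more called members than Nanog SunTag cells. The share of all genes tested that was called was also larger, 17.3% against 5.14% without LIF and 22.9% against 0.563% with LIF. The difference between the lines was tested separately, as given below. Without LIF, Hoxa13 in Nanog/Otx SunTag cells measured 1.00, 0, 0 and 0 normalised counts without Dox and 47.5, 94.6, 88.8 and 82.9 with Dox. Hoxa11 measured 0.669, 0, 0 and 0, then 15.8, 37.4, 30.4 and 18.4. The uninduced groups held 3 and 2 counts in all, so the ratios were 151 for Hoxa13 (exact 95% counting interval 51.2 to 735) and 69.7 for Hoxa11 (18.8 to 583).

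Hoxa10 measured 2.01, 1.32, 0.833 and 2.23 normalised counts without Dox and 54.0, 70.0, 112 and 50.6 with Dox. Evx1 measured 2.34, 1.32, 3.33 and 5.57, then 38.2, 53.7, 50.8 and 44.7. All 4 genes were separated completely and were called higher, with log2 fold changes of 5.36 ± 0.53 for Hoxa10 (edgeR, adjusted p = 1.29e-05) and 3.94 ± 0.49 for Evx1 (adjusted p = 8.04e-05), and adjusted p of 3.12e-06 for Hoxa13 and 0.00045 for Hoxa11. Each of these 4 calls held in all 15 fits that left 1 library out and in each clone fitted alone, an alternative chosen after seeing the data.

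One member fell, or 2 with clone and number as a block, which called Hoxb7 lower (log2 fold change −1.55, adjusted p = 0.011, against 0.0577 without the block). Hoxd13, the most 5′ HoxD gene and a gene of digit formation, measured 78.6, 95.1, 102 and 77.9 normalised counts without Dox and 54.0, 61.9, 43.1 and 39.5 with it, a log2 fold change of −0.80 ± 0.24 (edgeR, adjusted p = 0.0319). This call was lost in 5 of 15 fits, without the −LIF −Dox library C1ON3-2 or C2ON3-1 or the −LIF +Dox library C1ON3-1, C2ON3-1 or C2ON3-2 (adjusted p = 0.0529 to 0.092), and in clone C1ON3 alone (adjusted p = 0.258). The 5 called members, 4 higher and 1 lower of 14 tested, stood against 17.3% of all genes tested called in either direction, 11.2% higher and 6.15% lower. In this line Evx1, Hoxa10, Hoxa11, Hoxa13, Hoxb13 and Hoxd8 passed the filter on low counts only through conditions with Dox. That favours higher calls, so nothing was read from the share called.

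With LIF the 5′ HoxA genes rose again in Nanog/Otx SunTag cells. Hoxa13 measured 7.38, 2.83 and 0 normalised counts without Dox and 74.2, 152, 84.2 and 79.9 with Dox. Hoxa10 measured 8.05, 3.97 and 0, then 86.7, 87.4, 50.5 and 29.5. Hoxa11 measured 2.68, 6.80 and 9.26, then 55.4, 79.9, 15.9 and 13.2. All libraries with Dox lay above all without for these genes, and for Hoxa10 and Hoxa11 the 2 libraries of clone C1ON3 with Dox were the highest.

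The log2 fold changes were 4.40 ± 0.53 for Hoxa13 (edgeR, adjusted p = 0.000106), 3.54 ± 0.54 for Hoxa10 (adjusted p = 0.00047) and 2.88 ± 0.71 for Hoxa11 (adjusted p = 0.00996). Hoxd1, the most 3′ HoxD gene, also rose, by 1.30 ± 0.38 (adjusted p = 0.0248). Together 4 of 14 members were called, all higher, against 22.9% of all genes tested called in either direction, 12.9% higher and 10.0% lower. The filter acted as given for this line without LIF, so nothing was read from the share called. With clone and number as a block 6 were called, all higher, among them Hoxb13 (adjusted p = 0.0444). The share of all genes called was not counted for the block or for clones fitted alone. In clone C1ON3 alone the count was 7, and in clone C2ON3 alone, whose uninduced group was the 1 shallowest library of the series, it was 1, Hoxa13. Without the +LIF −Dox library C1ON3-1 the count was 2, with adjusted p = 0.0698 for Hoxa11. Hoxd1 lost its call without that library or without the +LIF +Dox library C2ON3-1 (adjusted p = 0.0688 to 0.123).

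Evx1 with LIF measured 12.7, 11.3 and 9.26 normalised counts without Dox and 25.1, 61.8, 13.1 and 15.8 with Dox in Nanog/Otx SunTag cells. The groups did not overlap, and the log2 fold change was 1.24 ± 0.49 (edgeR, adjusted p = 0.0793). It passed with clone and number as a block (adjusted p = 0.0433) and without the +LIF +Dox library C2ON3-1 (adjusted p = 0.0454). The interaction, a comparison added after seeing the data, gave Evx1 a response that was larger without LIF by 2.70 ± 0.69 on the log2 scale (edgeR, adjusted p = 0.0231). With the block 3 members were called, and the share over all genes was not counted for that fit. Without the block Evx1 was the 1 member called of 14, against 9.70% of all genes tested, 5.15% higher and 4.55% lower. That call was lost without the +LIF −Dox libraries C1ON3-1 or C1ON3-2 or the −LIF −Dox library C1ON3-1 (adjusted p = 0.062 to 0.0687) and in each clone alone.

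**Figure D3:**
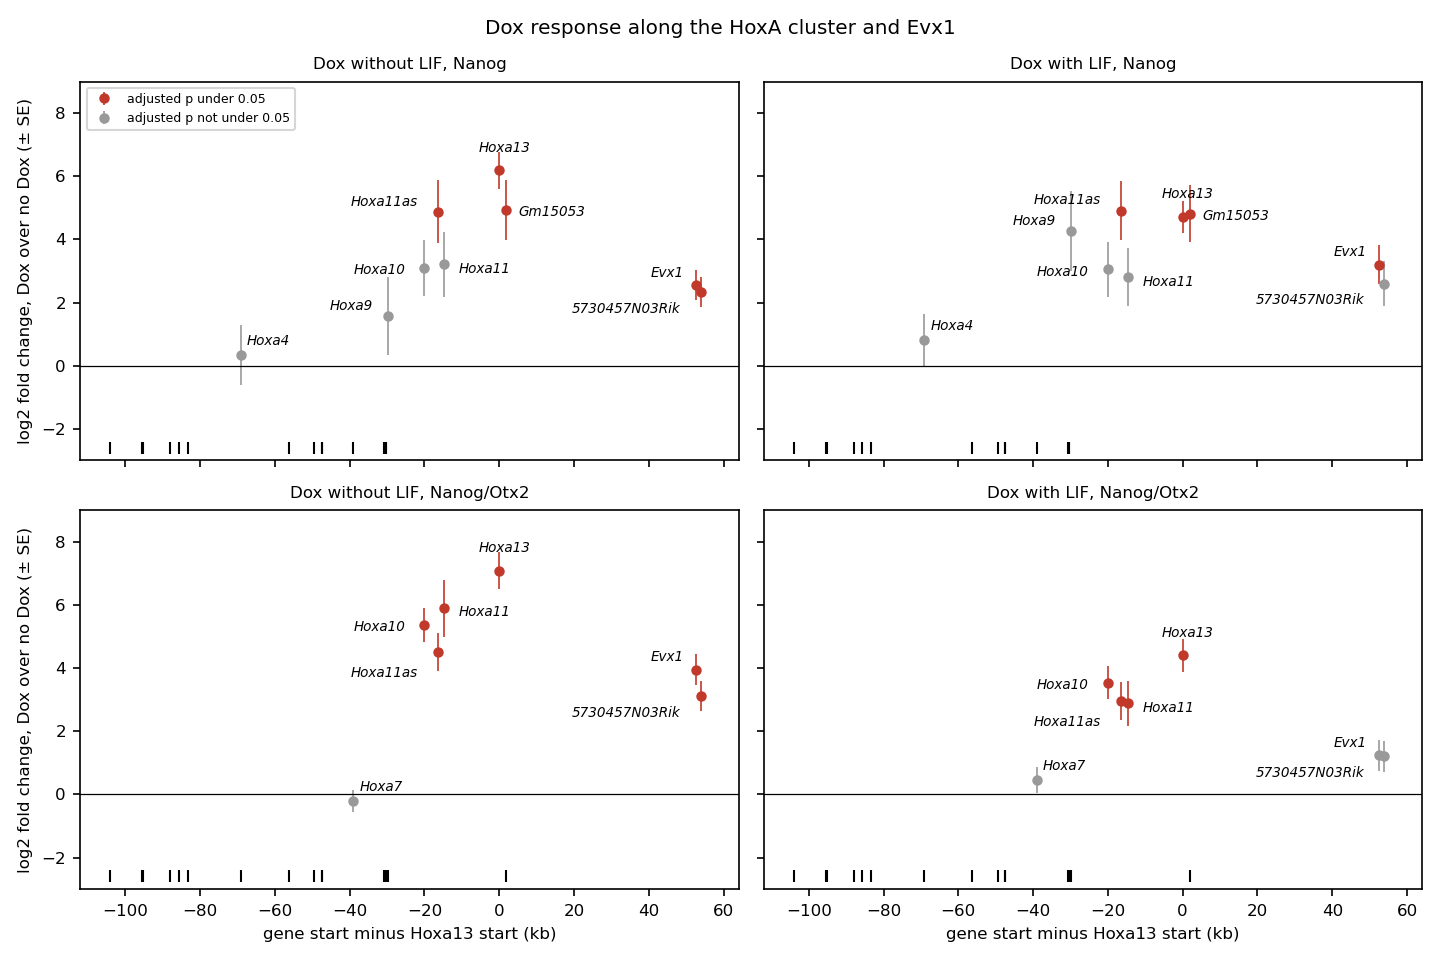
Log2 fold change with Dox over without (± SE) against the distance of each gene's start from that of Hoxa13, in kilobases, for HoxA genes, Evx1 and transcripts between them, in 4 panels for the cell line and LIF; red points have an adjusted p under 0.05, and black ticks mark genes that were not tested. The highest point of each panel lies between Hoxa11as and Gm15053.

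The part of the HoxA sum that came from Hoxa9, Hoxa10, Hoxa11 and Hoxa13 describes the same pattern by position. In Nanog SunTag cells without LIF it was 3.85% to 23.5% without Dox and 71.9% to 88.6% with Dox, and in Nanog/Otx SunTag cells without LIF 1.72% to 10.4% and 73.3% to 87.9%. With LIF it was 8.87% to 32.1% and 58.2% to 88.7% in Nanog SunTag cells, and 7.14% to 31.5% and 53.7% to 79.9% in Nanog/Otx SunTag cells. In 44iN cells it was 19.7% and 65.4% after 24 h without Dox and 90.7% and 94.5% with Dox. The ranges did not overlap in any of these 5 pairs of conditions.

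Summed levels of the other clusters overlapped between the same pairs of conditions, except those of HoxD in 44iN cells, at 53.2 and 88.8 normalised counts after 24 h without Dox and 145 and 162 with Dox, and in Nanog/Otx SunTag cells with LIF, at 54.3 to 69.4 without Dox and 74.3 to 115 with it. The summed HoxB level without LIF was 95.7 ± 61.4 normalised counts without Dox and 72.7 ± 20.0 with Dox in Nanog SunTag cells (SD, n = 3), and the HoxC sum was 70.6 ± 31.3 and 41.0 ± 8.76. The HoxD sum was 167 ± 102 and 155 ± 93.4. In the same cells the HoxA sum went from 40.9 ± 22.8 to 188 ± 34.0 without overlap.

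Whether the Otx2 guide altered the Dox response was tested without LIF. None of 17 members was called in the difference between Nanog/Otx and Nanog SunTag cells, 0 had an unadjusted p under 0.05 and DESeq2 called 0, against 0.0308% of all genes tested. For Hoxa10 the response was larger with the Otx2 guide by 2.20 on the log2 scale, with a 95% interval of −0.20 to 4.59, and for Hoxa13 by 0.83, with an interval of −1.26 to 2.93. A direct contrast of the guides in the induced cells gave 2 called members, and its share over all genes tested was not counted. The SunTag lines were sequenced as separately named library series, so in that contrast the guide and the series cannot be told apart.

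LIF withdrawal without Dox was compared next. Called members lay in all 4 clusters across the SunTag lines, but 41.5% (Nanog) and 49.8% (Nanog/Otx) of all genes tested were called. Nothing was therefore read from the spread of calls over the clusters. In Nanog SunTag cells 5 members fell and none rose among 15 tested, against 41.5% of all genes tested called, 20.2% higher and 21.3% lower. With clone as a block Hoxd13 was also called, higher by 1.81 on the log2 scale (adjusted p = 0.0439, against 0.0756 without the block), as it was by DESeq2 (adjusted p = 0.0315). Hoxc13, known from hair and nail, measured 83.0, 149 and 165 normalised counts with LIF and 39.1, 54.3 and 46.7 without. Hoxa13 went from 16.1, 10.1 and 8.74 to 0.814, 1.29 and 2.46.

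These groups did not overlap, and the log2 fold changes were −1.53 ± 0.34 for Hoxc13 (edgeR, adjusted p = 0.00378) and −2.86 ± 0.72 for Hoxa13 (adjusted p = 0.00824). Hoxb9 fell by 1.34 ± 0.39 on the log2 scale (adjusted p = 0.0181), from 37.5, 80.5 and 105 to 22.0, 36.2 and 33.2 normalised counts. Hoxb13, the gene at the 5′ end of HoxB, fell by 3.94 ± 1.02 (adjusted p = 0.00925), from 5.36, 52.0 and 11.2 to 1.63, 1.29 and 1.23. Hoxb9 lost its call without the +LIF −Dox library C2-2 or the −LIF −Dox library C1-1 (adjusted p = 0.0794 to 0.0939), and Hoxb13 without the +LIF −Dox library C2-1 (adjusted p = 0.0643).

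Some 3′ members had no count in Nanog SunTag libraries with LIF and without Dox. Hoxb1, an early hindbrain gene, had none in these 3 libraries and 1.63, 24.6 and 11.1 normalised counts without LIF, at least 7.33-fold higher by the floor of 3 counts over the group. Hoxb2 went from no count to 4.07, 24.6 and 3.69, at least 6.36-fold higher. Both bounds rested largely on library C1-2, and without it they were 3.75-fold for Hoxb1 and 2.29-fold for Hoxb2. Neither passed the filter on low counts in this line, because libraries of every condition stayed under 10, and so neither was tested.

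In Nanog/Otx SunTag cells LIF withdrawal without Dox called 9 of 14 members, 4 higher and 5 lower, against 49.8% of all genes tested, 24.6% higher and 25.2% lower. Hoxb1 measured 0.671, 1.13 and 0 normalised counts with LIF and 17.7, 17.2, 52.5 and 30.1 without. Its ratio, over 3 counts with LIF, was 30.9 with an exact 95% counting interval of 10.4 to 151 (edgeR, adjusted p = 0.000323). Hoxb7 measured 3.35, 7.37 and 4.63 with LIF and 15.7, 23.8, 56.6 and 46.7 without, a log2 fold change of 2.66 ± 0.66 (adjusted p = 0.00362). For both, all libraries without LIF lay above all with LIF.

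The other members that rose were HoxD genes at either end of the cluster. Hoxd13 measured 32.9, 33.4 and 27.8 normalised counts with LIF and 78.6, 95.1, 102 and 77.9 without, a log2 fold change of 1.42 ± 0.28 (edgeR, adjusted p = 0.000621). Hoxd1 measured 8.05, 13.6 and 4.63, then 19.1, 35.7, 15 and 24.5, a log2 fold change of 1.14 ± 0.38 (adjusted p = 0.0226) that lost its call without the +LIF −Dox library C1ON3-1 or the −LIF −Dox library C1ON3-2 (adjusted p = 0.0642 to 0.109).

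Hoxc13, Hoxa11, Hoxa13, Evx1 and Hoxd8 fell. Hoxc13 measured 79.8, 80.5 and 204 normalised counts with LIF and 25.7, 30.4, 38.3 and 25.6 without, a log2 fold change of −1.94 ± 0.33 (edgeR, adjusted p = 0.000191). Evx1 measured 12.7, 11.3 and 9.26, then 2.34, 1.32, 3.33 and 5.57, a log2 fold change of −1.95 ± 0.57 (adjusted p = 0.0106). Hoxa13 and Hoxa11 ended at the 3 and 2 counts per group given above (edgeR, adjusted p = 0.00668 and 0.0145). The Hoxa13 values overlapped, since the shallowest library with LIF had no count either. Hoxa13 lost its call without the +LIF −Dox library C1ON3-1 (adjusted p = 0.0993) and Hoxa11 without C1ON3-2 of that condition (adjusted p = 0.0886). In clone C1ON3 alone the calls of Hoxa13 (adjusted p = 0.0596), Hoxd1 (adjusted p = 0.0543) and Hoxd8 (adjusted p = 0.332) were lost, and in clone C2ON3 alone, with 1 library with LIF, those of Hoxa13 (log2 fold change 0, adjusted p = 1), Hoxd1 (adjusted p = 0.185) and Evx1 (adjusted p = 0.486). Over all libraries Hoxd8 (adjusted p = 0.0438) lost its call in 11 of 15 such fits (adjusted p = 0.0507 to 0.142) and with clone and number as a block (adjusted p = 0.0628), under which Hoxb9 was called lower (adjusted p = 0.00258).

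**Figure D4:**
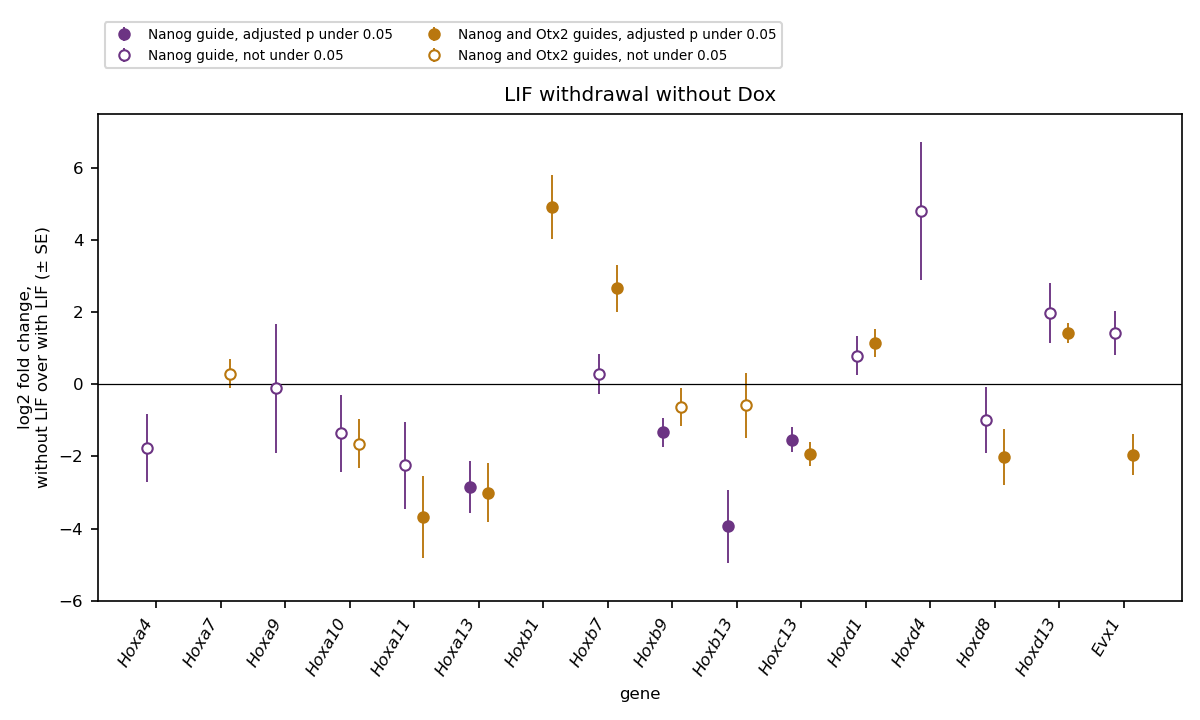
Log2 fold change without LIF over with LIF (± SE), both without Dox, for tested members in Nanog SunTag (purple) and Nanog/Otx SunTag (orange) cells; filled points have an adjusted p under 0.05. Hoxa13 and Hoxc13 lie below 0 and are filled in both lines, Evx1 lies on opposite sides of 0, and the wide bar of Hoxd4 belongs to a gene without a count in the Nanog SunTag libraries with LIF and without Dox.

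Evx1 differed between the lines in its response to LIF withdrawal. In Nanog SunTag cells without Dox it measured 8.03, 6.71 and 4.99 normalised counts with LIF and 12.2, 18.1 and 22.1 without, a log2 fold change of 1.41 ± 0.61 (edgeR, adjusted p = 0.0805), whereas in Nanog/Otx SunTag cells it fell. The difference between the responses, a comparison added after seeing the data, was −3.36 ± 0.85 on the log2 scale (adjusted p = 0.0379), and Evx1 was the 1 member called of 17, against 2.49% of all genes tested, 0.697% higher and 1.79% lower, with a further member called under the parental clone as a block. The call of Evx1 was lost in 9 of 26 fits that left 1 library out, with adjusted p between 0.0585 and 0.0999. These were the Nanog SunTag +LIF −Dox libraries C2-1 and C2-2 and −LIF −Dox libraries C1-2 and C2-1, and the Nanog/Otx SunTag +LIF −Dox libraries C1ON3-1 and C1ON3-2 and −LIF −Dox libraries C1ON3-1, C1ON3-2 and C2ON3-1. 5730457N03Rik, across the Evx1 start, rose in Nanog SunTag cells by 1.94 ± 0.68 (adjusted p = 0.0375).

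Long-term loss of Nanog in 44iN cells was compared with Tg2a FCS cells. Nanog measured 276 and 228 normalised counts in 44iN LT cells and 19420 to 20260 in Tg2a FCS cells. Hoxb9 measured 29.7 and 25.9, against 56.8, 82.8 and 66.2, and fell by 1.38 ± 0.33 on the log2 scale (edgeR, adjusted p = 0.0427). It was the 1 member called of 9, against 8.61% of all genes tested, 3.35% higher and 5.26% lower, and lost its call without either 44iN LT library or Tg2a FCS replicate 2 (adjusted p = 0.149 to 0.265).

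Hoxa13 measured 1.92 and 3.40 normalised counts in 44iN LT cells and 7.97, 13.3 and 10.7 in Tg2a FCS cells, without overlap, but did not pass the filter and was not tested. Hoxa10 and Hoxa11, at 13.4 and 17.0 and at 27.3 and 13.6 in 44iN LT cells, overlapped the 11.6 to 17.5 and 16.4 to 18.6 of Tg2a FCS cells. The comparison confounds the loss of Nanog with the line, its selection and its long culture, which cannot be told apart.

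The neighbours and regulators of the clusters were counted from listed genes. Among TALE cofactors, the Pbx, Meis and Pknox homeodomain partners of Hox proteins, 2 of 9 rose and 2 fell on LIF withdrawal in Nanog SunTag cells, against 20.2% higher and 21.3% lower over all genes tested, with a log2 fold change of 1.74 ± 0.27 for Pbx3 (edgeR, adjusted p = 0.000508). In Nanog/Otx SunTag cells 5 of 9 rose and 2 fell, against 24.6% and 25.2% of all genes tested. With Dox and without LIF no TALE cofactor was called in either line, against 5.14% (Nanog) and 17.3% (Nanog/Otx) of all genes tested. With Dox and LIF 2 were called higher in Nanog/Otx SunTag cells, against 12.9%.

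Of 11 PRC2 genes, 5 fell and none rose on LIF withdrawal without Dox in each SunTag line, where 21.3% (Nanog) and 25.2% (Nanog/Otx) of all genes tested were called lower. In Nanog SunTag cells the core subunit Eed changed by −1.48 ± 0.18 on the log2 scale (edgeR, adjusted p = 9.84e-05), the methyltransferase Ezh2 by −0.65 ± 0.16 (adjusted p = 0.00717) and the accessory subunit Mtf2 by −0.88 ± 0.27 (adjusted p = 0.0214). With Dox and without LIF the accessory subunit Phf19 rose in both lines, by 2.00 ± 0.35 (adjusted p = 0.00789) in Nanog SunTag cells and 1.25 ± 0.40 (adjusted p = 0.0433) in Nanog/Otx SunTag cells. No other PRC2 gene was called in that comparison in Nanog SunTag cells, and 1 was called lower in Nanog/Otx SunTag cells. Over all genes tested 5.14% (Nanog) and 17.3% (Nanog/Otx) were called in either direction there. With Dox and LIF 5 of 11 were called lower in Nanog/Otx SunTag cells, against 10.0% of all genes tested, and none was called in Nanog SunTag cells. The part of these genes in the Hox values was not tested.

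Posterior-axis regulators were 13 genes, such as Cdx and Wnt family members, that act upstream of Hox genes in the embryo. On LIF withdrawal 4 rose and 1 fell of 8 tested in Nanog SunTag cells, against 20.2% higher and 21.3% lower over all genes tested. With Dox none was called in that line, against 5.14% without LIF and 0.563% with LIF. In Nanog/Otx SunTag cells with Dox 1 rose and 1 fell of 7 tested without LIF, against 11.2% and 6.15%. With LIF 1 fell there, against 10.0%, and the interaction called 2, both higher, against 5.15%. On LIF withdrawal 3 rose and 2 fell in Nanog/Otx SunTag cells, against 24.6% and 25.2%. Gdf11 rose in Nanog SunTag cells by 1.95 ± 0.39 on the log2 scale (edgeR, adjusted p = 0.00239), and Cdx1, a caudal-type activator of Hox genes, fell by 4.72 ± 0.99 (adjusted p = 0.00297); with a mean of 39.9 normalised counts with LIF it was below the level for naming, and was chosen after its values were seen. Of the 16 genes flanking the clusters, 3 rose and none fell with Dox without LIF in Nanog SunTag cells, against 3.60% higher and 1.54% lower over all genes tested. These were Hibadh beyond Evx1 (1.26 ± 0.28, adjusted p = 0.0222), and Calcoco2 (1.50 ± 0.22, adjusted p = 0.00254) and Ttll6 (1.65 ± 0.30, adjusted p = 0.00853) beyond HoxB. On LIF withdrawal 1 of the 16 rose and 7 fell in that line, against 20.2% higher and 21.3% lower over all genes tested. With Dox without LIF 4 rose and none fell in Nanog/Otx SunTag cells, against 11.2% higher and 6.15% lower. Gm15055, a non-coding gene 158 kb from the Hoxa13 start on the 3′ side, fell on LIF withdrawal in both lines, by 4.24 ± 0.41 (adjusted p = 1.69e-05) and 2.85 ± 0.44 (adjusted p = 8.49e-05).

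Markers of pluripotent and other cell types moved with these comparisons. The summed level of 6 pluripotent markers was 87499 to 107340 normalised counts with LIF and without Dox in Nanog SunTag cells, 26944 to 35460 after LIF withdrawal and 46054 to 49876 with Dox and without LIF. With LIF and Dox it was 91079 to 98836, and all 6 markers were detected in every condition. The 4 primitive streak markers summed to 86.1 to 188 with LIF alone, 483 to 688 with LIF and Dox, 433 to 640 with neither and 419 to 671 with Dox alone. Of 3 streak markers tested there, 1 was called higher with Dox and LIF, against 0.422% of all genes tested. With Dox without LIF 1 was called lower, against 1.54%. A sum is set mostly by its highest markers and does not stand for each of them. In 44iN cells 2 streak markers were detected 24 h without Dox and 1 with Dox, and the 2 tested had a median log2 fold change of −0.05. In these cells the 4 summed to 216 to 240 after 24 h without Dox and 376 to 424 with Dox, with Gsc at 0, as it was in Nanog SunTag cells with LIF alone. In the same order the 44iN sums of the other lists were 402 to 458 and 76.2 to 215 for extraembryonic endoderm, 68.0 to 130 and 227 to 243 for trophoblast, 269 to 430 and 510 to 1041 for neural markers, 288 to 346 and 303 to 378 for allantois and 97782 to 99021 and 88594 to 89842 for pluripotent markers. Only the allantois sums overlapped between these conditions, which had 2 libraries each, so that separation is common by chance.

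The 4 trophoblast markers summed to 131 to 198 normalised counts with LIF alone and 443 to 550 with LIF and Dox in Nanog SunTag cells, and to 551 to 609 and 377 to 477 without LIF. The 4 allantois and extraembryonic mesoderm markers, which share Hand1 with the trophoblast list and mark cells in which 5′ HoxA genes are also known, summed to 519 to 763 with LIF alone, 619 to 692 with LIF and Dox, 151 to 172 with neither and 281 to 387 with Dox alone, and Postn was at 0 in all but the last. Of these lists 1 or 2 of 4 markers were detected per condition. The 4 extraembryonic endoderm markers summed to 159 to 416, 198 to 396, 75.7 to 96.9 and 66.9 to 93.4 in the same order, and the 2 neural markers in the table to 162 to 345, 355 to 476, 1170 to 3649 and 815 to 1459.

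In Nanog/Otx SunTag cells the pluripotent markers summed to 108680 to 119950 normalised counts with LIF alone, 98660 to 106500 with LIF and Dox, 43975 to 56171 with neither and 59083 to 70906 with Dox alone. In the same order the primitive streak markers summed to 99.9 to 121, 180 to 326, 206 to 308 and 268 to 448, and the trophoblast markers to 236 to 282, 421 to 475, 826 to 1311 and 709 to 1223. The allantois markers summed to 447 to 741, 311 to 397, 111 to 144 and 199 to 230, with Postn at 0 with LIF alone. With Dox and LIF the streak and trophoblast sums lay above those with LIF alone without overlap, and the pluripotent and allantois sums below. Without LIF the pluripotent and allantois sums lay above with Dox, and the streak and trophoblast sums overlapped. The extraembryonic endoderm and neural sums overlapped between Dox and no Dox with and without LIF, at 113 to 352 and 255 to 673 with LIF alone. The part of other cell types in the Hox values was not tested, and in bulk RNA more cells expressing a gene and more RNA of it per cell cannot be told apart.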

How the data were processed

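Poly(A) RNA of 35 libraries was sequenced with a stranded kit. The submitters' processing notes name CASAVA 1.8, STAR, RSEM, DESeq2 and mm9; other versions are not given in the sources used here. The authors deposited expected counts per gene from RSEM, used here as whole numbers, and a normalised signal table, which is those counts divided by DESeq2 size factors. Coordinates, exon lengths and promoters came from NCBIM37 with GENCODE vM1, which matched 37205 of 37620 identifiers and all 42 members.

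Differences were tested with edgeR 4.0.16 (TMM, quasi-likelihood test, R 4.3.3) on the models of the study's methods over all libraries of a line, for genes that reached 10 normalised counts throughout some condition of the model, adjusted over all genes tested (Benjamini-Hochberg) and called under 0.05. The scripts were tested on simulated data. Alternatives were DESeq2 1.42.0 as test and as size factors, no filter or filterByExpr, a replicate block, fewer libraries, and each library left out. Named genes were all members, the induced genes, transcripts within the clusters and, per list, up to 3 called genes in each direction with 100 normalised counts or more on average. The members and lists were chosen with earlier results of these data known. Libraries from the same SunTag clone deviated together (median correlation of deviations 0.142 in Nanog and 0.228 in Nanog/Otx SunTag cells, against −0.144 and −0.232 between clones), and since they are the same cell line, clone pairs the conditions. Deviations were taken from the mean of each condition, which pulls the correlations between clones down, so those are no independent baseline. The reported fits had no clone term, and the replicate block was an alternative. Intervals and floors cover counting error only. ChIP, accessibility and 2i libraries were not analysed here. The values of some genes are not reported here, although counts over members and lists include them.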

Additional observations from a re-analysis of the deposited data

Results flagged for a closer look

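In groups of 4 libraries, 42 combinations of gene and group were checked for a library that stood apart by Dixon's test, and 5 were marked, where chance marks about 1 in 20. Hoxa13 in Nanog/Otx SunTag cells with LIF and Dox reached 152.3 normalised counts in library C1ON3-2, against 74.2 to 84.2 in the others, so its highest value was that of 1 library. Hoxb13 without LIF and Dox was 19.99 in library C2ON3-1 and 0 to 3.34 in the others. Hoxc13 without LIF and with Dox was 29.18 in library C2ON3-1 and 38.1 to 38.5 in the others. Hoxa13 at 1.003 and Hoxa11 at 0.6687 in library C1ON3-1 without LIF and Dox were 3 and 2 counts beside libraries at 0, and this was the deepest library of its group.

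Evx1 was marked on 2 tests of a difference between responses. Its response to LIF withdrawal without Dox differed between Nanog/Otx and Nanog SunTag cells by −3.36 on the log2 scale (edgeR, adjusted p = 0.0379), higher in all 3 Nanog SunTag libraries without LIF and lower in all 4 Nanog/Otx SunTag libraries without LIF than in those with LIF. Its Dox response in Nanog/Otx SunTag cells was larger without LIF by 2.70 (edgeR, adjusted p = 0.0231), and all 8 libraries with Dox lay above those without Dox of the same LIF state.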

How the results depend on the processing

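Counts of called members changed under some settings. DESeq2 called 4 rather than 2 for Dox without LIF in Nanog SunTag cells, 4 rather than 2 for the joint test, 4 rather than 0 in 44iN cells and 3 rather than 1 for the interaction in Nanog/Otx SunTag cells. Without a filter the counts were 8 rather than 5 for LIF withdrawal in Nanog SunTag cells, 4 in 44iN cells and 5 for the joint test. With the replicate block they were 4 for Dox without LIF, 4 for the joint test, 3 for the Nanog/Otx interaction, also by the table's column numbers, 2 for LIF withdrawal between the lines, 6 in 44iN cells and 2 for 44iN LT against Tg2a FCS, where libraries share only a number, while the column-number block gave 0 for Dox with LIF in Nanog SunTag cells. In 44iN cells deviations of same-numbered libraries correlated at 0.492, and in the comparison with Tg2a FCS at 0.079 and 0.188; the block moved no other count by more than 1.5 times. The libraries with LIF alone gave 0 for Dox with LIF, those without LIF alone 4, and the direct contrast of guides 2. Clones fitted alone, chosen after seeing the data, gave 7 (C1ON3) and 1 (C2ON3) for Dox with LIF and 0 each for the interaction in Nanog/Otx SunTag cells. With 1 library left out at a time, the counts ran from 4 to 7 (LIF withdrawal), 1 to 3 (Dox without LIF), 1 to 2 (Dox with LIF) and 0 to 0 (interaction) in Nanog SunTag cells, 7 to 10, 4 to 6, 2 to 5 and 0 to 2 in Nanog/Otx SunTag cells, 0 to 0 (Dox) and 0 to 1 (LIF) between the lines, 2 to 5 in 44iN cells, 0 to 2 for LT and 1 to 2 for the joint test. No named gene changed direction. Where an alternative changed a count, the cause was not tested. The share of all genes tested that was called was not counted for the alternatives, so nothing was read from the size of these counts. Members below 10 counts in a group were limited by depth, most in the Nanog/Otx SunTag library C2ON3-1 with LIF and without Dox, at 6107512 counts.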

Other observations

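Gm53, a non-coding gene within HoxB, had called changes with LIF and Dox. In Nanog SunTag cells it measured 112, 211 and 221 normalised counts with LIF and without Dox, 57.0, 64.6 and 118 with neither, and 193, 166 and 401 with Dox alone. It fell on LIF withdrawal by 1.22 ± 0.41 on the log2 scale (edgeR, adjusted p = 0.0348), although the groups overlapped, and rose with Dox without LIF by 1.70 ± 0.41 (adjusted p = 0.0352). In 44iN LT cells it measured 60.9 and 60.6, against 203, 262 and 269 in Tg2a FCS cells, a log2 fold change of −2.09 ± 0.28 (adjusted p = 0.00673). 6720416L17Rik, at HoxD, rose in Nanog/Otx SunTag cells on LIF withdrawal by 2.17 ± 0.39 (adjusted p = 0.000326), from 5.37, 3.40 and 0 to 21.1, 15.8, 23.3 and 12.2 normalised counts.

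Hoxc12, beside Hoxc13, had no count in the 4 Nanog/Otx SunTag libraries without LIF and Dox, and 6.04, 3.97 and 37.0 normalised counts with LIF, at least 30.6-fold higher with LIF by a floor of 3 counts over the group. Its highest value was 8 counts in the shallowest library of the series, C2ON3-1, and without that library the bound was 9.75-fold. Of 16 other Antennapedia-class homeobox genes, 2 rose and 3 fell of 8 tested on LIF withdrawal in each SunTag line, against 41.5% (Nanog) and 49.8% (Nanog/Otx) of all genes tested called in either direction, among them Gbx2 at −3.59 ± 0.34 (edgeR, adjusted p = 1.43e-05) in Nanog SunTag cells.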
